A study of Mus musculus with 8 samples.

Results

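NF-kB is a family of dimeric transcription factors built from Rel proteins, and 10 genes of the pathway are described here: the subunit genes Nfkb1, Nfkb2, Rela and Relb, and 6 feedback regulators and targets, Nfkbia, Nfkbiz, Tnfaip2, Tnfaip3, Icam1 and Birc3. They were chosen by gene symbol, and where several probes carried a symbol the brightest on average was read. No probe carried the name Nfkb1, so 3 subunits and 6 targets had a value, among 19057 genes with a named probe. Of these 9 genes, 8 passed the filter on dim probes, each above background on all 8 arrays, and entered the comparison with 12466 genes in all. Birc3 was too dim.

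The samples were intestinal organoids, 3-dimensional epithelial cultures grown from crypts, from C57Bl mice 2 to 3 months old. Every mouse carried Lgr5-EGFP-IRES-CreER, which makes a tamoxifen-inducible Cre in Lgr5-expressing stem cells, and homozygous floxed Apc, a brake on Wnt signalling. All cultures received tamoxifen for 2 days and then lost R-Spondin1, the Wnt agonist of the medium, to select Apc-mutant organoids. RNA was taken at day 7 after tamoxifen (5 days without R-Spondin1) or day 20 (18 days without it), with 4 samples at each time and 1 Illumina beadchip array per sample. Nothing in the labels tells separate cultures or mice from repeats of 1 culture, so every p-value here rests on the spread among these arrays, part of which may be technical. No undeleted or untreated culture was measured, so time since deletion, time without R-Spondin1 and time in culture cannot be told apart.

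In resting cells NF-kB dimers are held in the cytoplasm by inhibitors of the IkB family. Signals from cytokine and microbial receptors activate IkB kinases, the inhibitor is degraded, and the dimers enter the nucleus. Much of this control lies in protein modification, while many genes that NF-kB switches on, among them its own inhibitors, serve as transcript readouts of its activity. In gut epithelium the pathway is known for barrier defence, inflammation and cell survival.

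Facts of the whole set frame these results. All arrays had the same median log2 intensity, 6.81, and 52.99% to 53.17% of probes lay above a background limit of 6.796. Between the days 604 of 12466 genes were called (limma, Benjamini-Hochberg adjusted p under 0.05), 4.85% of those tested, with 2.51% higher and 2.33% lower at day 20. Among epithelial markers 8 of 8 were above the limit on at least 4 arrays, and 7 of 8 on all 8 arrays. The exception was Epcam, which lay near the limit at 6.75 to 7.00 and was above it on 3 arrays of each day. Xist, the transcript of the inactive X chromosome, was at 6.68 and 6.74 on day 20 replicates 1 and 4 and at 9.39 to 10.41 on the other arrays, and the Y-linked Eif2s3y was at 8.34 and 8.51 on that pair and at 6.66 to 6.73 on the other 6. By these transcripts the pair is male and the others female, so sex differs among the day 20 arrays and is unbalanced between the days. Calls of members and named pathway genes that change without the pair are given both ways. Lgr5, the stem cell gene whose locus drives the Cre, fell by 0.82 on the log2 scale (limma adjusted p = 0.0215). Apc did not check the labels, since both days followed the deletion (day 7, 7.35 ± 0.12, and day 20, 7.28 ± 0.14; SD, n = 4).

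The region before the start of 5 members is shown because the comparison between the days concerns genes on which NF-kB is known to act. RefSeq (GRCm38.p6) gave a window from 250 bases before to 50 after the start for 7 of the 10 members. Capitals mark matches, on either strand, to the NF-kB consensus, a stricter form of a pattern of 3 G, any 5 bases and 2 C, and the sequences run in the direction of the gene. Tnfaip3 and Nfkb2 have several windows, of which 1 each is printed. The unprinted Nfkb2 windows also held consensus matches, but these windows overlap and share 1 of them. The unprinted Tnfaip3 window and the windows of Rela and Birc3 held 0.
Tnfaip2, chr12:111442411-111442710, plus strand: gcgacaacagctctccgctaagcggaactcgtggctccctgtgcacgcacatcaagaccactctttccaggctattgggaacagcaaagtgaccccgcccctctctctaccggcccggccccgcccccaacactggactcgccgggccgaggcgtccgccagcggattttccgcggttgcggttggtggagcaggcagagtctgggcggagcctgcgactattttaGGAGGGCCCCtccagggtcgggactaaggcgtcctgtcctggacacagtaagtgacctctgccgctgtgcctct
Icam1, chr9:21015690-21015989, plus strand: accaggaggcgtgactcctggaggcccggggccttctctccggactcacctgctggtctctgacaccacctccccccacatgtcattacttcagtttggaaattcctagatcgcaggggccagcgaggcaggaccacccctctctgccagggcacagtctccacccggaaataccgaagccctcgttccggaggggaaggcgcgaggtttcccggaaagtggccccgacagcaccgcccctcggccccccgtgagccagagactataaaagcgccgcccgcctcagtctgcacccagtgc
Nfkbia, chr12:55492598-55492897, minus strand: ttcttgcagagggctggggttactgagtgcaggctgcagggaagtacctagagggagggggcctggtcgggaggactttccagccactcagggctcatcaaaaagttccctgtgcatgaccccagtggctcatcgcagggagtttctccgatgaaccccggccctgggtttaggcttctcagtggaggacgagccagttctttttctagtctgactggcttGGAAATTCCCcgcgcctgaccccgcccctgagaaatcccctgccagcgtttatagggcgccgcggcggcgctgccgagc
Tnfaip3, chr10:19015361-19015660, minus strand: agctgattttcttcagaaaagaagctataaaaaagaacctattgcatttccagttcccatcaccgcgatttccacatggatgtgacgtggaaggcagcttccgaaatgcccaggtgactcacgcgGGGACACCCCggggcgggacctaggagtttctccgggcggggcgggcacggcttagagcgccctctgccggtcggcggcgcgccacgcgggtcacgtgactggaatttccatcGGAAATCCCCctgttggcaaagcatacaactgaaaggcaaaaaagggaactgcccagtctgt
Nfkb2, chr19:46304487-46304786, plus strand: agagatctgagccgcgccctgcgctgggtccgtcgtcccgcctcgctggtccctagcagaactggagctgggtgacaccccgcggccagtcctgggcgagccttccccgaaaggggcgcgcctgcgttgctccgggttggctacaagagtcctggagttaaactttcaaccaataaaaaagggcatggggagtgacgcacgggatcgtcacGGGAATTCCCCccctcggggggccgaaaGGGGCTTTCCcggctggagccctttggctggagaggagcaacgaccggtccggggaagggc
Nfkbia held GGAAATTCCC, which reads GGGAATTTCC on the opposite strand, with its first base at -29 from the start. Nfkb2 held GGGAATTCCC at -39, which matches on both strands and overlaps a further match at -38, and GGGGCTTTCC at -11. The Tnfaip3 window held GGGACACCCC at -125, matching on both strands, and GGAAATCCCC at -12. Tnfaip2 held GGAGGGCCCC at -24, on the opposite strand. Icam1 had no consensus match and 1 match to the looser pattern, GGACCACCCC at -120. Consensus matches were present in 4 of the 7 members with a window, against 9.55% of 27025 genes with any window and 8.46% of 32851 windows. The looser pattern, searched on both strands, matched in all 7 and in 53.5% of genes. A match is a string of letters, not a shown binding site, and no factor binding was measured. Both patterns require 3 G, so a site without them in any window was not counted.

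Among the 3 measured subunits, none was called between the days, and they did not move in 1 direction. Rela, the subunit that carries most transcriptional activity of the canonical pathway, gave 11.33, 11.09, 11.36 and 11.10 on day 7 replicates 1 to 4 and 11.17, 10.94, 11.01 and 10.94 on day 20 replicates 1 to 4. The days overlapped, with 3 of the 4 day 20 arrays below every day 7 array. Its log2 difference, day 20 minus day 7, was -0.205 (95% confidence interval -0.407 to -0.003; limma adjusted p = 0.238). Relb, a subunit of the non-canonical pathway, gave 8.63, 8.58, 8.49 and 8.65 at day 7 and 8.77, 8.62, 8.89 and 8.85 at day 20. Day 20 replicate 2 lay within the day 7 range, and the other 3 lay above it. The Relb difference was 0.195 (interval 0.028 to 0.362; limma adjusted p = 0.178).

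Nfkb2, whose product is the precursor that pairs with Relb and is itself a target of NF-kB, gave 6.94, 6.89, 7.20 and 6.96 at day 7 and 7.23, 7.30, 7.17 and 7.38 at day 20. The days overlapped through day 7 replicate 3 alone. All 8 values were close to the background limit, where differences are compressed. The difference was 0.27 (interval 0.084 to 0.461; limma adjusted p = 0.108), and with the background subtracted it was 0.76 and still not called (adjusted p = 0.0621). All 3 subunits had an unadjusted p under 0.05 (0.0101 for Nfkb2, 0.0275 for Relb and 0.0473 for Rela), and none passed after adjustment under any of the alternatives run. Rel, the remaining subunit and no member, exceeded the background limit on 2 day 20 arrays alone (6.73 to 6.95 over that day), and it was not tested.

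**Figure D1:**
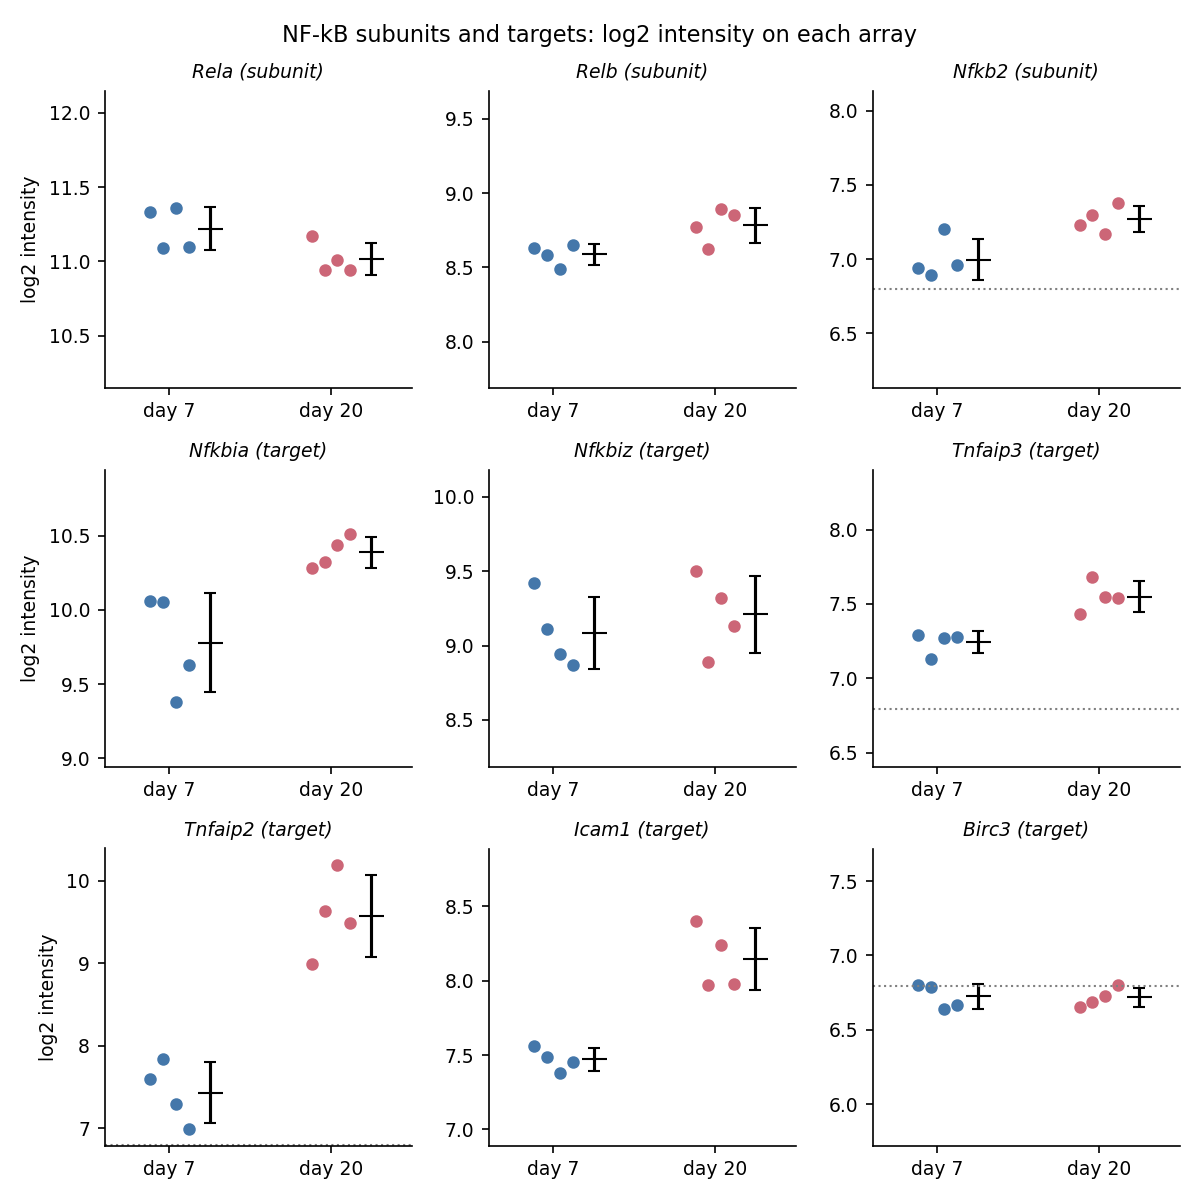
Log2 intensity of the 9 members with a named probe on each array, by day; points are replicates 1 to 4 from left to right, bars are mean ± SD (n = 4), the dotted line is the background limit where it falls in the panel, and vertical axes differ in position and, for Tnfaip2, in span. The days do not overlap for Nfkbia, Tnfaip3, Tnfaip2 and Icam1, and Birc3 lies at background.

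Of the 6 targets, 3 rose between the days and none fell. Tnfaip2 rose 4.42-fold, Icam1 1.6-fold and Tnfaip3 1.24-fold, against a background of 2.51% of all tested genes called higher. In bulk RNA of this kind, more cells that express a gene and more RNA per cell cannot be told apart. Tnfaip2 encodes a TNF-induced protein related to a subunit of the exocyst, and it is a known NF-kB target. It gave 7.60, 7.84, 7.30 and 6.99 on day 7 replicates 1 to 4 and 8.99, 9.63, 10.19 and 9.49 on day 20 replicates 1 to 4. Every day 20 array lay more than 1 log2 unit above every day 7 array. The log2 difference was 2.14 (SE 0.265, interval 1.535 to 2.750; limma adjusted p = 0.00407), and 11 of the 12466 tested genes, 0.0882%, including Tnfaip2 itself, had a difference at least as high. It passed under all 20 alternatives run for it, the other probes included, with an adjusted p of 0.000744 to 0.0219. With the background subtracted its difference was 3.07.

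The 2 other probes of Tnfaip2 were dimmer and separated the days as well. The next brightest went from 6.89 at day 7 to 8.22 at day 20, a difference of 1.33 (limma adjusted p = 0.0118 in place of the chosen probe), and the dimmest from 6.83 to 8.09, a difference of 1.26 (adjusted p = 0.00547). Both lay near background at day 7, where differences are compressed, and both were highest on day 20 replicate 3, as was the chosen probe.

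Icam1 encodes an adhesion molecule that binds leukocyte integrins. It gave 7.56, 7.49, 7.38 and 7.45 at day 7 and 8.40, 7.97, 8.24 and 7.98 at day 20. The groups did not overlap, and the lowest day 20 array was above the highest day 7 array by more than the whole day 7 range. The difference was 0.68 (SE 0.104, interval 0.439 to 0.916; limma adjusted p = 0.0108). With the background subtracted it was 1.13. Of all tested genes, 1.95% had a difference at least as high. It missed the threshold only when a 1.2-fold change was required (adjusted p = 0.101). The window printed above held no consensus match, and sequence outside it was not searched.

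Tnfaip3 encodes a ubiquitin-editing enzyme that shuts off signalling to NF-kB. It gave 7.29, 7.13, 7.27 and 7.28 at day 7 and 7.43, 7.68, 7.55 and 7.54 at day 20. The days did not overlap, but the change was small. The difference was 0.31 (SE 0.0691, interval 0.149 to 0.466; limma adjusted p = 0.0432), and 0.65 with the background subtracted. Leaving out any day 7 array ended the call (0.0905, 0.078, 0.0876 and 0.0797 for replicates 1 to 4), as did leaving out day 20 replicate 2 (0.0918), 3 (0.0809) or 4 (0.092), or day 20 replicates 1 and 4 together (0.069). With all 8 arrays it was also lost under cyclic loess (0.0544), trend and robust variance (0.0562), the replicate block (0.134) and a 1.2-fold requirement, so that it passed in 6 of 18 alternatives.

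Nfkbia encodes IkB alpha, the inhibitor that NF-kB induces to end its own signal. It gave 10.06, 10.05, 9.38 and 9.63 at day 7 and 10.28, 10.32, 10.44 and 10.51 at day 20. The days did not overlap, and the day 7 arrays spread more widely than the day 20 arrays (SD 0.33 against 0.11). The difference was 0.61 (SE 0.155, interval 0.253 to 0.962) and did not pass (limma adjusted p = 0.0662). It passed without day 7 replicate 2 (0.0481), with array weights (0.0404), with an intensity trend and robust variance (0.0403), and with its probes averaged (0.0304, at a difference of 0.41). The dimmer probe of Nfkbia went from 6.93 to 7.14, a difference of 0.21 (adjusted p = 0.174 in place of the chosen probe).

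**Figure D2:**
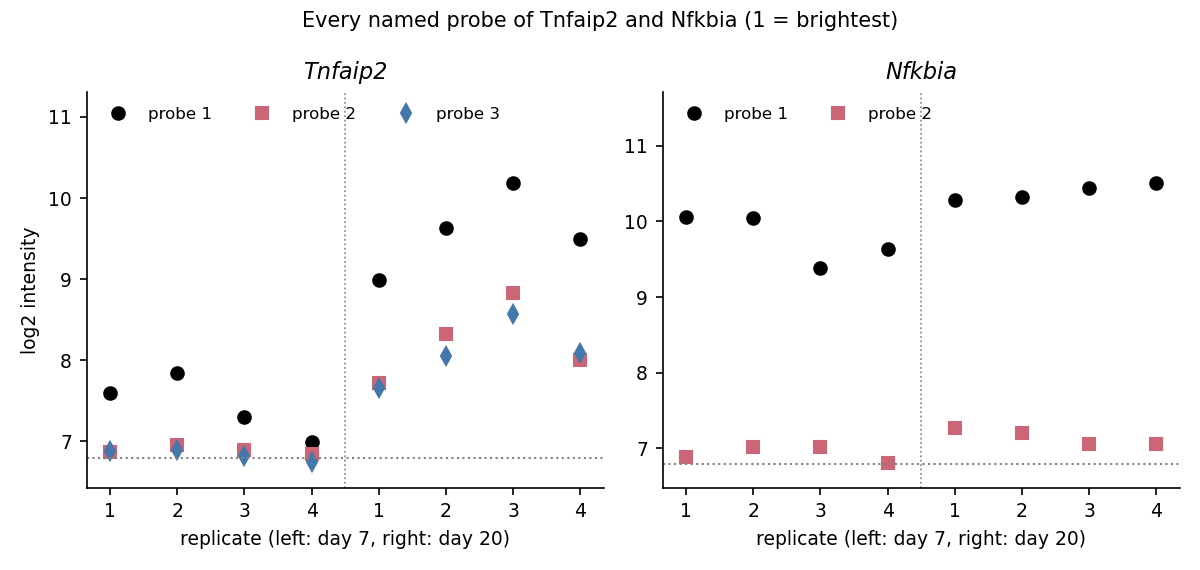
Log2 intensity of every named probe of Tnfaip2 (3 probes) and Nfkbia (2 probes) on each array, day 7 at left and day 20 at right of the vertical line; the horizontal dotted line is the background limit. All 3 Tnfaip2 probes are higher on each day 20 array than on any day 7 array, and the dim Nfkbia probe shows a smaller difference than the bright one.

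Nfkbiz encodes a nuclear IkB protein that acts as a cofactor for a subset of NF-kB targets. It gave 9.42, 9.11, 8.94 and 8.87 at day 7 and 9.50, 8.89, 9.32 and 9.13 at day 20. The days overlapped almost wholly. The difference was 0.125 (interval -0.237 to 0.487; limma adjusted p = 0.728), so a change of up to 0.487 on the log2 scale lies within the interval. Birc3, which encodes a ubiquitin ligase that restrains cell death downstream of TNF receptors, gave 6.80, 6.79, 6.64 and 6.67 at day 7 and 6.65, 6.69, 6.73 and 6.80 at day 20. It was above the limit on 1 array of each day, so no difference could be read.

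The groups of 4 of the 5 tested targets and of 0 of the 3 tested subunits did not overlap between the days, always with day 20 higher, against 6.27% of all tested genes that were higher without overlap and 6.84% that were lower. All 5 tested targets and 2 of the 3 subunits had a positive difference, against 52.3% of all tested genes. The median log2 difference was 0.61 over the 5 tested targets, 0.195 over the 3 tested subunits and 0.005 over all tested genes. The largest subunit difference in either direction, 0.27 for Nfkb2, was smaller than those of Tnfaip3, Nfkbia, Icam1 and Tnfaip2. That order depended on the background, near which Nfkb2 lay. With the background subtracted Nfkb2 was at 0.76, above Tnfaip3 (0.65) and Nfkbia (0.67) and below Icam1 (1.13) and Tnfaip2 (3.07). Centred on each gene's mean over the 8 arrays, the mean of the 5 targets lay between -0.544 and -0.202 on the day 7 arrays and between 0.310 and 0.560 on the day 20 arrays. Without Tnfaip2 it lay between -0.367 and -0.027 at day 7 and between 0.106 and 0.293 at day 20. The subunit mean ranged from -0.125 to 0.038 at day 7 and from -0.025 to 0.078 at day 20. The days thus overlapped for the subunit mean and not for the target means. In the subunit mean a negative difference of Rela (-0.205) partly cancels the positive ones of Nfkb2 (0.27) and Relb (0.195).

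**Figure D3:**
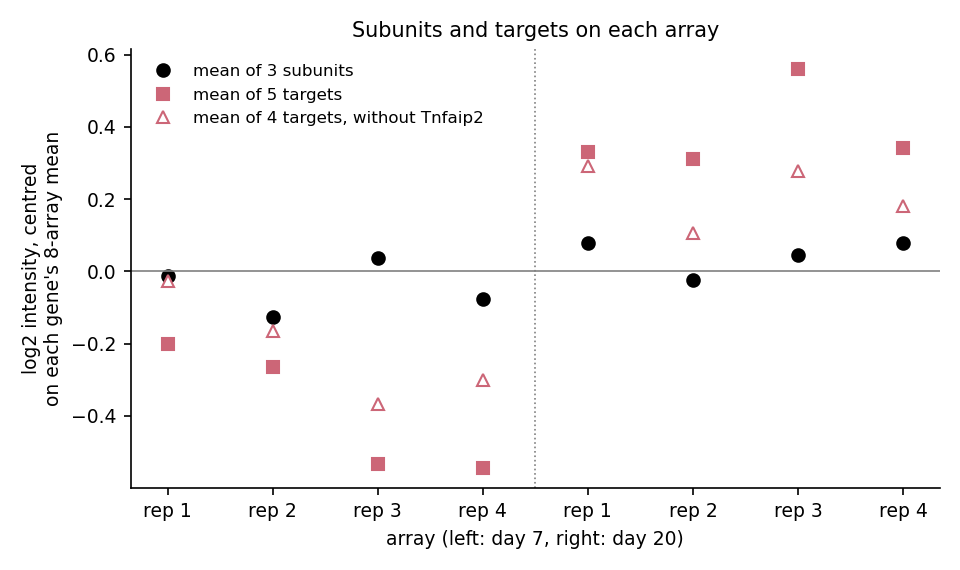
Mean log2 intensity of the 3 tested subunits, the 5 tested targets and the targets without Tnfaip2 on each array, each gene centred on its mean over the 8 arrays; day 7 is left and day 20 right of the dotted line. Target means run from -0.544 to -0.202 at day 7 and from 0.310 to 0.560 at day 20, and subunit means stay between -0.125 and 0.078. In the subunit means the difference of Rela is opposite in sign to those of Nfkb2 and Relb.

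Whether each target changed differently from the subunits was tested by subtracting each array's mean over Nfkb2, Rela and Relb from every gene and repeating the limma fit over all 12466 genes. In that fit, which was chosen after the data were seen, 5.14% of genes were called and 180, 1.44%, were higher at day 20. Relative to the subunits Tnfaip2 was higher by 2.06 on the log2 scale (interval 1.447 to 2.663; limma adjusted p = 0.00351) and Icam1 by 0.59 (0.347 to 0.833; adjusted p = 0.0164). Icam1 lost that call when a 1.2-fold change was required (0.248) and kept it in the 17 other alternatives. Nfkbia, at 0.52 (0.138 to 0.902; limma adjusted p = 0.113), and Tnfaip3, at 0.22 (0.027 to 0.413; limma adjusted p = 0.175), were not shown to differ from the subunits. Nfkbiz was at 0.04 (-0.297 to 0.372; limma adjusted p = 0.891).

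The ratios of a target to single subunits share their subunits and targets and are given as a description. Against Rela, the log2 ratios of Nfkbia, Tnfaip2, Tnfaip3 and Icam1 were higher at day 20 without overlap, by 0.812, 2.348, 0.513 and 0.883, as were the ratios of 15.8% of all tested genes to Rela. Against Nfkb2 this held for Tnfaip2 alone among the targets, by 1.870, and for 1.08% of all tested genes, while the ratio of Tnfaip3 to Nfkb2 differed by 0.035. Against Relb it held for Nfkbia, Tnfaip2 and Icam1, and for 1.53% of all tested genes.

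**Figure D4:**
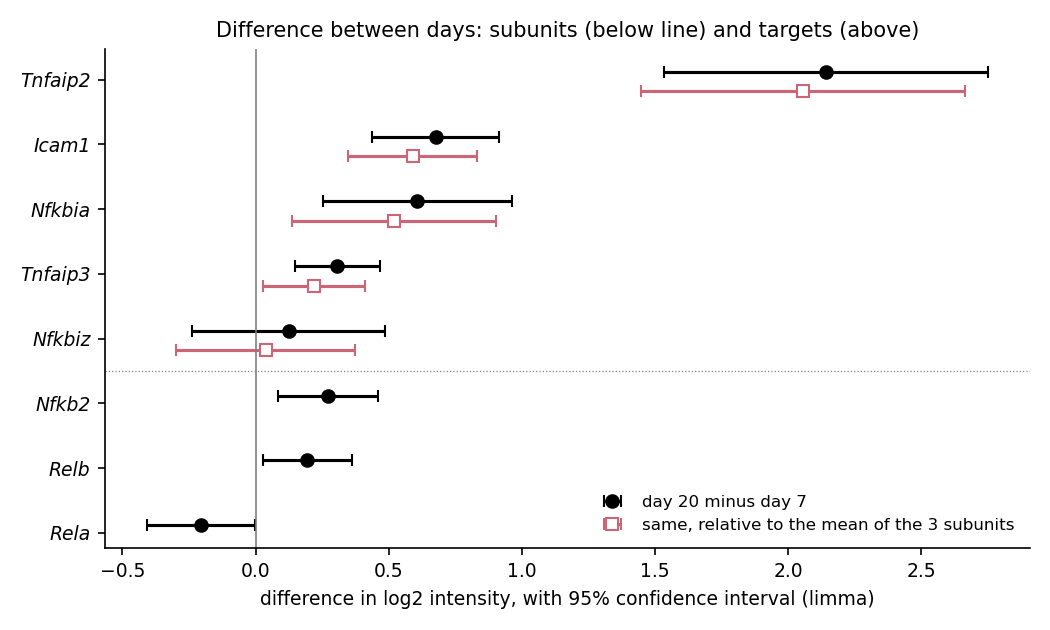
Difference in log2 intensity, day 20 minus day 7, of the 8 tested members (filled circles) and, for the 5 targets, the same relative to the mean of the 3 subunits (open squares), with 95% confidence intervals from limma that are not adjusted for the number of genes. Tnfaip2 stands at 2.14 and Icam1 at 0.68, and the subunits lie between -0.205 and 0.27.

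Other genes of the pathway were grouped by role in 4 lists, drawn up with earlier results of these data known, so their counts are no independent support. Ligands and receptors had 1 of 16 tested genes higher and none lower, where 2.51% of all tested genes were called higher and 2.33% lower, the shares beside which each list's count stands. That was Tlr4, the receptor for bacterial lipopolysaccharide, which was dim throughout, at 6.77 to 6.87 at day 7 and 7.11 to 7.32 at day 20. Its difference was 0.35 (limma adjusted p = 0.0187), or 1.14 with the background subtracted, and it missed the threshold without day 7 replicate 1 (0.0611) or 3 (0.053) and without day 20 replicates 1 and 4 (0.0718). Tnf, the cytokine that gives the Tnfaip genes their name, was at 7.98, 7.64, 7.77 and 7.80 at day 7 and 8.05, 8.22, 8.40 and 8.65 at day 20. The days did not overlap, but the difference of 0.53 was not called (limma adjusted p = 0.06). It was called without day 20 replicate 1 (0.0397), with the trend (0.0388) and with the background subtracted (0.0423, at 0.79).

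Adaptors and kinases had 1 of 20 tested genes higher and none lower, and their median difference was 0.096. Ikbke, an IkB kinase-related kinase, rose by 0.49, from 7.95 ± 0.19 to 8.44 ± 0.13 (SD, n = 4 each; limma adjusted p = 0.0402). Of the 8 arrays, leaving out any but day 7 replicate 4 ended that call (0.0676 to 0.104), as did leaving out day 20 replicates 1 and 4 (0.145). Card10, a scaffold that links receptors to the kinases, had the widest difference among those not called, -0.33 (limma adjusted p = 0.25).

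Inhibitors had 2 of 12 tested genes higher and none lower. Zc3h12a, a ribonuclease that degrades inflammatory transcripts, rose by 0.575 on the log2 scale, from 7.09 to 7.58 on the day 7 arrays to 7.91 to 8.24 on the day 20 arrays (limma adjusted p = 0.039). N4bp1, a negative regulator of NF-kB signalling, rose by 0.35, from 9.74 ± 0.12 to 10.09 ± 0.08 (SD, n = 4 each; limma adjusted p = 0.0391). Both calls ended when any array but day 7 replicate 2 was left out (0.0641 to 0.0794 for Zc3h12a and 0.061 to 0.095 for N4bp1). They also ended without day 20 replicates 1 and 4 (0.153 and 0.139). Averaged over probes, 1 of which was near background for each gene, Zc3h12a was at 0.35 and still called (0.0291), and N4bp1 was at 0.20 and not called (0.0798). With the background subtracted Zc3h12a was at 1.03, and N4bp1 was not called (0.136). Bcl3 and Nfkbid, both nuclear IkB proteins, each differed by 0.265 and were not called. Bcl3 passed without day 20 replicate 1 (0.0499).

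Other genes known to be induced by NF-kB had 7 of 18 tested genes higher and none lower, with a median difference of 0.27. Saa3, an acute-phase apolipoprotein, went from 6.84 ± 0.05 to 7.70 ± 0.14 (SD, n = 4 each), a rise of 0.85 (limma adjusted p = 0.00111) that passed under all 18 alternatives and was 2.15 with the background subtracted. The day 7 values of Saa3, 6.80 to 6.90, lay just above the background limit of 6.796. Cxcl2, a chemokine for neutrophils, rose by 0.52 (limma adjusted p = 0.0079), with 3 day 7 arrays above background, and by 1.55 with the background subtracted. It missed only without day 20 replicates 1 and 4 (0.0505) and with a 1.2-fold change required (0.185). Lcn2, which binds bacterial iron carriers, was at 6.79 to 7.04 at day 7, with 2 arrays above background, and at 8.15 to 10.23 at day 20. Its rise of 2.20 (limma adjusted p = 0.0286; 3.90 with the background subtracted) lost its call without day 7 replicate 1 (0.0719), 2 (0.0536), 3 (0.0716) or 4 (0.0686) and without day 20 replicate 2 (0.0699). Day 20 replicates 1 and 4 were at 8.32 and 8.15, and replicates 2 and 3 at 9.62 and 10.23. Without day 20 replicates 1 and 4 the Lcn2 difference was 3.045 (limma adjusted p = 0.00183).

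Pigr, the epithelial receptor that carries antibodies into the lumen, rose by 0.86 on the log2 scale, from 8.18 ± 0.27 to 9.04 ± 0.28 (SD, n = 4 each; limma adjusted p = 0.0291). Its call ended when day 7 replicate 1 (0.0744) or 3 (0.0589) was left out, or day 20 replicate 1 (0.0723), 3 (0.0601) or 4 (0.068). Irf1, a transcription factor that interferon also induces, rose by 0.735 on the log2 scale, from 10.40 ± 0.32 to 11.14 ± 0.16 (SD, n = 4 each; limma adjusted p = 0.0376). Of the 8 arrays, only day 7 replicates 2 and 4 could be left out with the call kept (0.0598 to 0.0856 for the others). Averaged over its probes Irf1 was at 0.41 (0.194), where its other probes, from bright to dim, were at 0.63, 0.11, 0.16 and -0.04, the last above background on 3 arrays. Nos2, the inducible nitric oxide synthase, rose by 0.34 near background (limma adjusted p = 0.0378; 1.095 with the background subtracted), and kept its call without day 20 replicate 1 alone among single arrays left out (0.0592 to 0.102 for the others). Without day 20 replicates 1 and 4, Pigr (0.139), Irf1 (0.112) and Nos2 (0.0831) were not called, and 2 genes of the list were.

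Cxcl1, another neutrophil chemokine, had the widest difference among the genes not called, 1.28 (limma adjusted p = 0.133). Day 20 replicate 2 was at 7.70, within the day 7 range of 7.60 to 7.93, whereas the other day 20 arrays were at 9.35, 9.40 and 9.91. Without that array the difference was 1.74 (adjusted p = 0.00199), and without day 20 replicates 1 and 4 it was 0.74 (0.442).

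**Figure D5:**
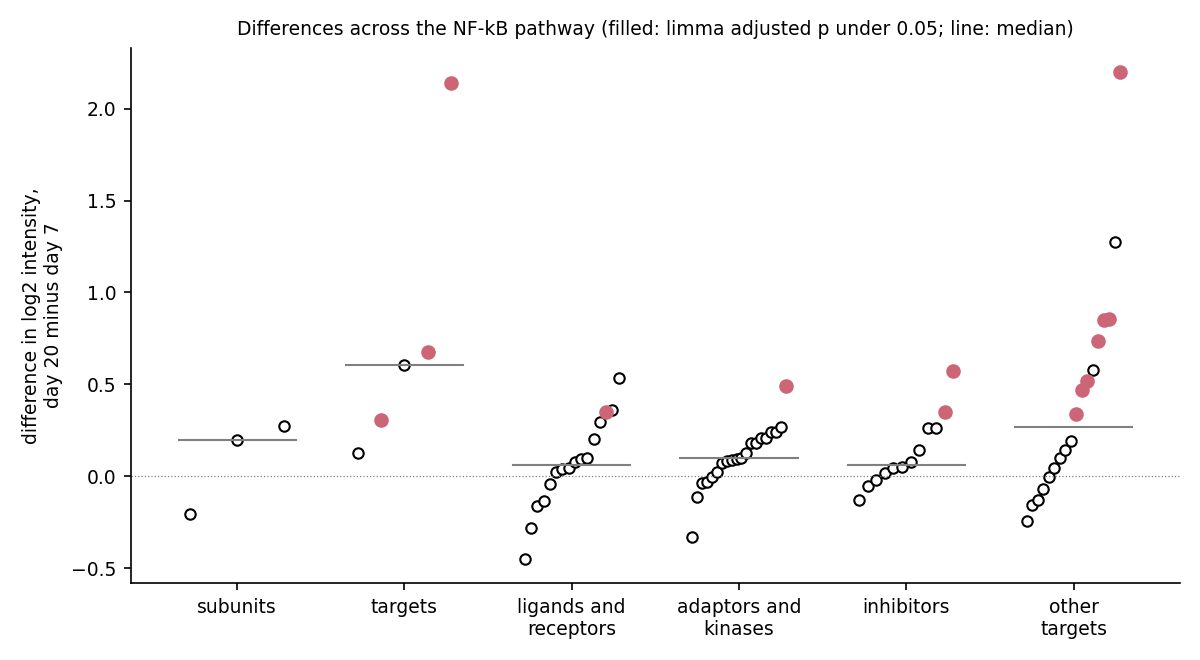
Difference in log2 intensity, day 20 minus day 7, of each tested gene in the 2 member groups and the 4 lists; filled points are called (limma adjusted p under 0.05) and grey lines are medians. Filled points number 0 of 3 subunits, 3 of 5 targets, 1 of 16 ligands and receptors, 1 of 20 adaptors and kinases, 2 of 12 inhibitors and 7 of 18 other targets, all above 0.

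Markers of other cells moved with the days in part. Of 10 named leukocyte markers, 3 were above the limit on at least 4 arrays, and Ptprc, Itgam and Lyz2 were above it on no array. Tyrobp was above it on 3 day 20 arrays, Cd52 on 2 and Adgre1 on 1, each with 0 at day 7. Fcgr3 was above it on 1 day 7 array and 0 at day 20. The summed intensity of the list above background was 66.6 to 95.2 at day 7 and 116 to 186 at day 20. Laptm5, a lysosomal protein of blood cells, was the 1 marker of the list called, with a rise of 0.565 on the log2 scale (limma adjusted p = 0.0424), from a mean of 7.08 to 7.64. The other tested markers of the list, Cd3e and Csf1r, differed by 0.08 and -0.035 and were not called. The enterocyte list had a summed intensity of 7798 to 85186 at day 7 and of 63.9 to 117 at day 20, and the goblet and enteroendocrine list of 9598 to 35763 and of 843 to 1193. The epithelial list was at 28371 to 35186 and at 32766 to 38696. The stroma and endothelium list was at 2672 to 4437 at day 7 and 227 to 2516 at day 20, a sum carried by Vim, an intermediate filament gene. Vim was at 11.41 to 12.13 on the log2 scale at day 7 and 7.95 to 11.31 at day 20, lowest on day 20 replicates 1 and 4, and was not called (limma adjusted p = 0.162). Without Vim the list was at 54.4 to 87.3 and 57.9 to 83.6, with Col1a1 above the limit on no array. The Paneth list was at 14256 to 30062 and 4054 to 27312. Its members Lyz1 and Ang4 were not called (limma adjusted p = 0.292 and 0.782). At day 20 Lyz1 was at 12.40 and 11.75 on replicates 1 and 4 and at 13.04 and 14.37 on replicates 2 and 3. Ang4 was at 9.65 and 9.56 on replicates 1 and 4 and at 11.58 and 12.61 on replicates 2 and 3. Mmp7, also of this list, rose by 0.83 on the log2 scale (limma adjusted p = 0.0164). The part of these shifts in the differences of the targets was not tested.

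The 5 tested genes outside the 8 members whose centred values followed the mean of the 5 tested targets most closely over the 8 arrays were Reg3g (Pearson r = 0.987), Trib3 (0.978), Asph (0.975), Sqle (0.971) and Chac1 (0.967). All 5 were themselves called higher at day 20, the values of each fell into separate ranges by day, and r is given only as a description of these arrays. Reg3g, an antimicrobial lectin, was at 6.75 to 7.25 at day 7 and 8.48 to 8.89 at day 20. Trib3, a pseudokinase induced by cell stress, was at 8.97 to 9.31 and 9.80 to 10.27. Sqle, a cholesterol synthesis enzyme, was at 11.04 to 11.55 and 11.73 to 11.96. Chac1, which breaks down glutathione, was at 10.08 to 10.49 and 10.65 to 10.84, and Asph, a hydroxylase of the endoplasmic reticulum, was at 7.27 to 7.44 and 7.58 to 7.76.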

How the data were processed

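RNA was labelled with biotin for Illumina arrays, per the labels' protocols. As deposited, each probe has a log2 intensity, and all arrays share 1 median. The authors' background correction and normalization were not given in the sources used here. A second deposited table has 16 per-sample columns that match no sample label, and it was not used.

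Gene names came from the platform's annotation, which gave 1 symbol to 34885 of 45281 probes, several to 18 and none to 10378. Symbols were checked by entrez number in RefSeq (34807 found, 0 updated). To set a background limit, 6.7, the most frequent value, was raised by the 0.05 upper-tail normal deviate times 0.05837, the SD of values at or below the mode. Genes above it on at least 4 of 8 arrays were tested with limma 3.58.1 in R 4.3.3 (lmFit, eBayes, two-sided, Benjamini-Hochberg adjusted p under 0.05). The fit was tested on simulated data with 200 changed genes. It recovered 59% of log2 changes of 0.5, 86.6% of changes of 1 and 97.7% of changes of 2, with 5.54% false calls. Changes smaller than 0.5 were not simulated. Arrays carry no counts, so the number of arrays and the signal over background limit precision.

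The members and lists were chosen with earlier results of these data known. Named were all members, the called genes of each list (at most 6, by adjusted p), the widest difference not called, Rel, and the 5 genes most like the targets. Check genes (Xist, Apc) and cell type markers were named as well. Alternatives were no filter, a strict filter (0.01 tail, 6.836), background subtraction at that mode (offset 16), cyclic loess, averaged probes, other probes, trend with robust variance, array weights, replicate number as a block, a 1.2-fold requirement, each array left out, and day 20 replicates 1 and 4 left out. The fit relative to the subunit mean was added after the data were seen. Plots used Python 3.11.15 and matplotlib 3.10.9.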

Additional observations from a re-analysis of the deposited data

Results flagged for a closer look

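In Tnfaip3, the day 7 value of 7.13 (replicate 2) lay far from the other 3, which were at 7.27 to 7.29. In Zc3h12a, the day 20 value of 8.24 (replicate 1) lay far from the other 3, at 7.91 to 7.93. In both, the gap divided by the range of the group exceeded Dixon's 95% critical value for 4 samples. These were 2 of 48 groups examined, and chance flags about 1 in 20.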

How the results depend on the processing

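The differences of Tnfaip2 and Saa3 passed under every alternative run for them, and no member that was tested changed direction in the comparison of the days, where another probe could replace that of Tnfaip2 and Nfkbia only. Among the other named genes, a dim probe opposed the chosen one in Card10 (0.06), Irf1 (-0.04) and Nos2 (-0.01). Requiring a 1.2-fold change left 162 genes called in place of 604, 1 member, 1 target relative to the subunits, 0 ligands and receptors, 0 adaptors and kinases, 0 inhibitors and 1 other target. Without day 20 replicates 1 and 4 the same 4 lists had 0, 0, 0 and 2. Ligands and receptors numbered 3 with the background subtracted and 2 with trend and robust variance. Adaptors and kinases numbered 2 with probes averaged and 0 with array weights. Inhibitors numbered 1 with no filter, with the background subtracted, with probes averaged and with the trend. The median target difference was 0.41 with probes averaged. With each array left out in turn, 301 to 579 genes, 0 to 2 ligands and receptors, 0 to 1 adaptors and kinases, 0 to 2 inhibitors and 2 to 4 other targets were called, and the median target difference was 0.47 to 0.70. Relative to the subunits, Nfkbiz turned to -0.118 with the background subtracted and -0.0333 without day 20 replicates 1 and 4, and ran from -0.0478 to 0.139 with single arrays left out. Beyond the smaller number of arrays in the fits that leave some out, the cause was not tested.

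With the replicate number as a block, 401 genes, 0 ligands and receptors, 1 inhibitor and 2 other targets were called. Tnfaip2 (limma adjusted p = 0.0219) and Icam1 (0.0302) passed under the block and Tnfaip3 (0.134) did not. Same-numbered arrays of the days deviated from their group means with correlations of 0.119, 0.0503, -0.00955 and 0.142 for replicates 1 to 4. Pairs with different numbers ran from -0.171 to 0.151. Such correlations cannot tell whether same-numbered arrays share a mouse or a culture. Background correction and normalization from the second deposited table were not run, because its columns match no sample label. Signal near background limits Birc3, Rel, Nfkb2, Tlr4, Cxcl2 and Nos2, and at day 7 also Saa3, Lcn2 and Reg3g. Tnfaip3, at 7.13 to 7.68, was dim as well, and its difference of 0.31 became 0.65 with the background subtracted.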
